A study of Mus musculus with 17 samples.

Results

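The 9 genes Adcy1 to Adcy9 encode the membrane-bound adenylyl cyclases, and they were taken by symbol from the 35285 genes measured in 17 mouse cochlear RNA libraries. All 9 were present in the table, each as 1 gene, and none was chosen for its level. The animals were wild-type 8-week-old male C57BL/6J mice, and the libraries fell into 3 groups. The control group (n = 3) received intraperitoneal saline and no noise. The noise exposure (NE) group (n = 7) was exposed for 2 h to noise of 8 to 16 kHz at 100 dB, which the labels call broadband and the methods call octave-band. The brimonidine (Bri) group (n = 7) had, per the methods, the same exposure and brimonidine at 1 mg/kg, injected intraperitoneally on the day before, the day of and the day after the noise. Tissue was taken on the second day after the noise. Per the methods, mice of all groups first had hearing tests that day, under xylazine and ketamine. Whether the NE mice received saline was not stated in the sources used here. By treatment, NE thus differs from control by the noise and possibly by the injection. The libraries also differed in marker genes of cerebellar neurons, higher in the controls and given below. The part of this difference in the comparisons with control was not tested. The labels name the source as cochlear cells and the cell type as interstitial cells, while the methods name cochleae.

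Adenylyl cyclases make cyclic AMP (cAMP) from ATP at the plasma membrane, and cAMP acts through protein kinase A, the exchange factors Epac, cyclic nucleotide-gated channels and, further on, the transcription factor CREB. The stimulatory G protein Gs activates all 9 enzymes, and Gi, the G protein of the α2-adrenergic receptor on which brimonidine acts, inhibits several of them. The isoforms differ in their other inputs. Adcy1, Adcy3 and Adcy8 respond to calcium and calmodulin, Adcy2, Adcy4 and Adcy7 are stimulated by the βγ subunits of G proteins, Adcy5 and Adcy6 are inhibited by calcium, and Adcy9 is the form least sensitive to the plant compound forskolin. Adcy1 is chiefly a neuronal enzyme, and changes in the human gene are a known cause of inherited hearing loss.

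The promoters of 4 members are shown because 3 of these genes, Adcy1, Adcy2 and Adcy5, were lower in every exposed library than in every control library, while the groups overlapped for Adcy4. Each is the 250 bases before the RefSeq transcription start on GRCm38.p6. Capitals mark 4 motifs that were searched on both strands, the cAMP response element motif TGACG, the GC box GGGCGG, the E-box CACGTG and the CCAAT box. No matches overlapped in these 4 windows. The Adcy1 window lies at chr11:7063183-7063432 on the plus strand, that of Adcy2 at chr13:68999542-68999791 on the minus strand, that of Adcy5 at chr16:35154614-35154863 on the plus strand and that of Adcy4 at chr14:55784073-55784322 on the minus strand.
Adcy1: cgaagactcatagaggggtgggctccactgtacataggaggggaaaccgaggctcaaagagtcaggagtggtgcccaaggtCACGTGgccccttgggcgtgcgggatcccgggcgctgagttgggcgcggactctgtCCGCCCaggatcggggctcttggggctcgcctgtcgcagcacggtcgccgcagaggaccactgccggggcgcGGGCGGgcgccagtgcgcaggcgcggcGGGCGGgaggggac
Adcy2: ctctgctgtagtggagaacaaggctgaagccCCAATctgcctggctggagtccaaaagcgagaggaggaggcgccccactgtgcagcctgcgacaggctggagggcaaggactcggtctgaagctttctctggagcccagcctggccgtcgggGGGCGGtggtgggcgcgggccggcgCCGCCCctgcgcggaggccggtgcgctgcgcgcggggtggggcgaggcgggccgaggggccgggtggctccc
Adcy5: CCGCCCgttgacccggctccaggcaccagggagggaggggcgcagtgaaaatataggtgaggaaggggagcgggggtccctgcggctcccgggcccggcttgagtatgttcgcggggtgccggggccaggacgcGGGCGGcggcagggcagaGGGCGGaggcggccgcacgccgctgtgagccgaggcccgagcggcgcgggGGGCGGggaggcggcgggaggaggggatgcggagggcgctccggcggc
Adcy4: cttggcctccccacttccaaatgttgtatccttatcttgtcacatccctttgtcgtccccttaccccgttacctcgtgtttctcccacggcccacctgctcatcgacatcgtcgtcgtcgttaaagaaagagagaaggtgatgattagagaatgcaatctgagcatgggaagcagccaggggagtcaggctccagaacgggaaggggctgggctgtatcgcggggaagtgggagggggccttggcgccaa
The Adcy1 window held 3 GC boxes and 1 E-box, the Adcy2 window 2 GC boxes and 1 CCAAT box and the Adcy5 window 4 GC boxes, while the Adcy4 window held none of the 4 motifs. Of all 32851 promoter windows of this length, 32.7% held the GC box, 6.02% the E-box, 33.8% the CCAAT box and 17.8% the motif TGACG. The windows of Adcy1, Adcy2 and Adcy5 had a GC content of 71.2%, 73.2% and 78.0%, above 92.2%, 94.3% and 97.9% of all windows. The Adcy4 window had 56.0%, against a median of 52.4% over all windows. High GC content was not confined to those 3 genes. The Adcy9 window had 78.8% and 4 GC boxes, and the Adcy3 windows had 68.8% with 1 GC box and 56.0% with none. The 3 Adcy7 windows had 54.0%, 56.0% and 56.4%, with 1 GC box in the last. Whether these traits bear on the levels was not tested. RefSeq gave 10 windows for 7 of the 9 members, with none for Adcy6 and Adcy8. The motif TGACG was found in the window of Adcy9 and in 1 of the 3 windows of Adcy7.

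A stretch of coding sequence that members share could make their reads hard to tell apart, so the longest stretches common to any pair of members were searched in GENCODE M21 transcripts. The longest of all was 33 bases, shared by Adcy4 and Adcy8, and the longest that Adcy1 shared with another member was 29 bases, with Adcy6.
Adcy4 and Adcy8: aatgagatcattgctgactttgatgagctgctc
Adcy1 and Adcy6: gatcacgcccactgctgtgtggagatggg
The first crosses an exon junction in both genes, at chr14:55770127-55770398 and chr15:64704238-64704684, both on the minus strand of GRCm38. The second lies within 1 exon of each gene, at chr11:7130351-7130379 on the plus strand and chr15:98599924-98599952 on the minus strand. No stretch of 50 bases was common to any pair of members. Exons of Adcy3 overlap those of Cenpo on the opposite strand over 22.1% of their bases, those of Adcy6 overlap Gm29331 over 8.9% and those of Adcy2 overlap Gm35161 over 4.5%. The libraries were made with a stranded kit, but whether counting used the strand was not given in the sources used here, so values of these 3 genes may include reads of their antisense partners.

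The FPKM values, fragment counts scaled by exon length and library size, rest on 14457732 to 18288851 fragments per library, recovered from the steps between low values. Control 2 stood apart, with a median correlation of 0.831 with the other libraries, against 0.947 to 0.981 for the other 16. It also had the lowest summed level of 8 neutrophil genes, 9686 FPKM, against 39345 to 64544 in the other 16 libraries, so the fits of the 8 members that passed the filter and their counts are also given without it. Hair cell genes such as Myo7a and supporting cell genes such as Gjb2 were present in all groups, with mean levels of 4.79 and 98.2 FPKM in controls. In bulk RNA, fewer cells of a type and less RNA per cell cannot be told apart. Tests are limma fits of log2(FPKM + 1) across all genes with Benjamini-Hochberg adjustment, and a gene was called at an adjusted p under 0.05 together with a log2 change of 1 or more in either direction. The methods name 17 mice for RNA sequencing, so each library was taken as 1 mouse.

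Of the 9 cyclase genes, Adcy1 was called lower in NE than in control and no member was called higher. Over all 15950 genes tested, 5.49% were called lower and 0.27% higher. Against control, the Bri group gave the same count, 1 member lower and 0 higher, where 5.56% of 15947 genes were called lower and 0.169% higher. The 2 comparisons share the 3 control libraries. The same 8 members passed the filter of 1 FPKM in 3 libraries in all 3 comparisons, including Bri with NE, where no control library enters. Adcy8 did not pass. Members for which every NE library was below every control library numbered 4 of the 8 tested, Adcy1, Adcy2, Adcy5 and Adcy9, where 15% of the genes tested showed this. For Bri with control it was 3 of 8, without Adcy9, where the share over the genes tested was 14.3%. Adcy8, outside these counts, showed it in both.

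**Figure D1:**
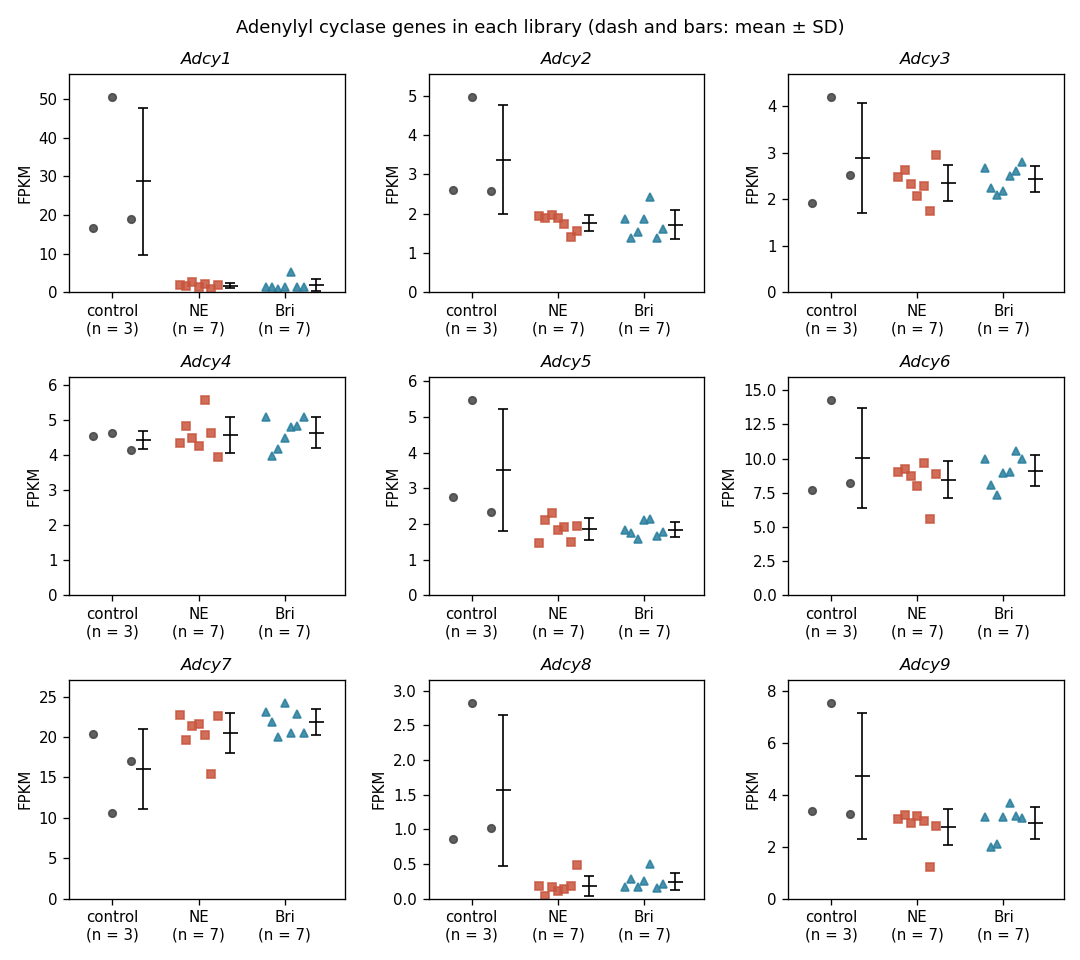
Each panel shows 1 adenylyl cyclase gene, with FPKM from 0 on the y axis and the control, NE and Bri libraries as points, and a dash with bars for mean ± SD. Adcy1 lay at 16.6 FPKM or more in the 3 controls and at 5.24 FPKM or less in all 14 exposed libraries, while Adcy4 overlapped across the 3 groups.

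Adcy1, the calcium- and calmodulin-stimulated cyclase, had 16.6, 50.6 and 18.9 FPKM in controls 1, 2 and 3. In NE it ranged from 0.755 to 2.62 FPKM with a median of 1.76. In Bri it ranged from 0.903 to 5.24 FPKM with a median of 1.40. All 14 exposed libraries were far below the lowest control, and Bri 5 was the highest of them. The means were 28.7 ± 19.0 FPKM in control (SD, n = 3), 1.67 ± 0.583 in NE and 1.84 ± 1.51 in Bri (SD, n = 7 each). The control mean was 17.1 times the NE mean. The log2 change from control to NE was -3.33 (SE 0.31, 95% interval -4.01 to -2.64, limma adjusted p = 0.000127), lower in 7 of 7 libraries and rank 22 from the lowest of 15950. Bri against control gave -3.33 (SE 0.39, limma adjusted p = 0.00111), also lower in 7 of 7. Without control 2 the values were -2.84 in both, with adjusted p of 4.93e-05 and 0.00132, and the mean of controls 1 and 3 was 10.6 times the NE mean. Without control 2, 2.2% of genes were called lower in NE and 2.9% in Bri. Adcy1 lies at chr11:7063489-7178506 on the plus strand.

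Adcy8, the other neuronal cyclase strongly driven by calcium and calmodulin, was low, with 0.852, 2.81 and 1.013 FPKM in controls 1, 2 and 3, from 62, 215 and 82 fragments. In NE it ranged from 0.0337 to 0.485 FPKM with a median of 0.170, from 3 to 43 fragments. In Bri it ranged from 0.150 to 0.492 FPKM with a median of 0.203. Every exposed library was below every control, with NE 7 and Bri 5 the highest in their groups. Tested singly, NE and Bri each differed from control with p = 0.0167 in an exact two-sided permutation test, the smallest that 7 against 3 libraries allow. In a fit with no filter on low values, the log2 fold change was -1.04 in NE (limma adjusted p = 0.0125) and -0.97 in Bri (limma adjusted p = 0.0156), so it was called lower in NE and fell short of the fold minimum in Bri. In those fits 2.67% and 2.69% of genes were called lower. The fit with no filter was not run without control 2, where the mean of controls 1 and 3 was 5.06 times the NE mean and 3.83 times the Bri mean.

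Adcy3, known as the cyclase of olfactory cilia and also stimulated by calcium and calmodulin, had 1.92, 4.20 and 2.53 FPKM in controls 1, 2 and 3. It ranged from 1.75 to 2.95 FPKM in NE (median 2.33) and from 2.08 to 2.79 in Bri (median 2.49), within the range of the controls in all but 1 library. NE against control gave a log2 fold change of -0.18 (95% interval -0.55 to 0.20, limma adjusted p = 0.485) and 0.06 without control 2. Bri against control gave -0.14 (95% interval -0.48 to 0.20, limma adjusted p = 0.548) and 0.10 without control 2.

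Among the members stimulated by βγ subunits, Adcy2 was lower in the exposed groups by adjusted p, and Adcy4 and Adcy7 passed in neither. Adcy2 had 2.60, 4.97 and 2.57 FPKM in controls 1, 2 and 3. It ranged from 1.42 to 1.95 FPKM in NE (median 1.88) and from 1.38 to 2.43 in Bri (median 1.61). No exposed library reached the controls, with Bri 5 again the highest of the Bri libraries. The log2 fold change was -0.62 in NE (SE 0.16, limma adjusted p = 0.0248) and -0.65 in Bri (SE 0.17, limma adjusted p = 0.0305), past the p threshold and short of the fold minimum. By adjusted p alone, 12% of all genes were lower in NE and 12.3% in Bri. Without control 2 the values were -0.38 and -0.41, with adjusted p of 0.0603 and 0.102, so the adjusted p no longer passed.

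Adcy4, a widely expressed cyclase, had 4.53, 4.63 and 4.14 FPKM in controls 1, 2 and 3. It ranged from 3.94 to 5.56 FPKM in NE (median 4.47) and from 3.98 to 5.09 in Bri (median 4.79). The 3 groups overlapped, and control 2 was close to the other controls. The log2 change from control to NE was 0.03 (95% interval -0.17 to 0.24, limma adjusted p = 0.827). In Bri it was 0.05 (95% interval -0.14 to 0.23, limma adjusted p = 0.705). Without control 2 the values were 0.06 and 0.08.

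Adcy7, a cyclase abundant in blood and immune cells, had 20.4, 10.6 and 17.0 FPKM in controls 1, 2 and 3, and was the only member lowest in control 2. It ranged from 15.4 to 22.7 FPKM in NE (median 21.4) and from 19.99 to 24.2 in Bri (median 21.9). Except in NE 6, the exposed libraries lay above the lower controls and around control 1. The log2 fold change was 0.37 in NE (95% interval -0.01 to 0.76, limma adjusted p = 0.164) and 0.47 in Bri (95% interval 0.13 to 0.81, limma adjusted p = 0.0627). Without control 2 it was 0.12 and 0.22, with adjusted p of 0.681 and 0.17.

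Of the members inhibited by calcium, Adcy5 was lower in Bri by adjusted p and Adcy6 passed in neither group. Adcy5 had 2.74, 5.47 and 2.33 FPKM in controls 1, 2 and 3. It ranged from 1.47 to 2.31 FPKM in NE (median 1.91) and from 1.59 to 2.13 in Bri (median 1.79). Neither exposed group overlapped the controls, although NE 3 came close to control 3. The log2 fold change was -0.60 in NE (SE 0.19, limma adjusted p = 0.0552) and -0.61 in Bri (SE 0.18, limma adjusted p = 0.0402), and without control 2 -0.31 and -0.32, with adjusted p of 0.203 and 0.0829. Adcy6 had 7.69, 14.3 and 8.23 FPKM in controls 1, 2 and 3. It ranged from 5.61 to 9.67 FPKM in NE (median 8.85) and from 7.31 to 10.5 in Bri (median 9.00). Controls 1 and 3 lay within the range of each exposed group. Above both of these controls were 5 of 7 NE and 5 of 7 Bri libraries, and below both was 1 of each group. On the log2 scale the fold change in NE was -0.19 (95% interval -0.61 to 0.22, limma adjusted p = 0.489) and 0.06 without control 2. In Bri it was -0.09 (95% interval -0.46 to 0.28, limma adjusted p = 0.728) and 0.17 without control 2.

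Adcy9, a broadly expressed cyclase, had 3.39, 7.53 and 3.28 FPKM in controls 1, 2 and 3. It ranged from 1.23 to 3.20 FPKM in NE (median 3.01) and from 1.98 to 3.67 in Bri (median 3.13). All NE libraries were below the controls, NE 2 only just below control 3, and Bri 5 was above controls 1 and 3. On the log2 scale the fold change was -0.55 in NE (SE 0.25, limma adjusted p = 0.146) and -0.49 in Bri (SE 0.22, limma adjusted p = 0.133), and without control 2 -0.23 and -0.17.

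**Figure D2:**
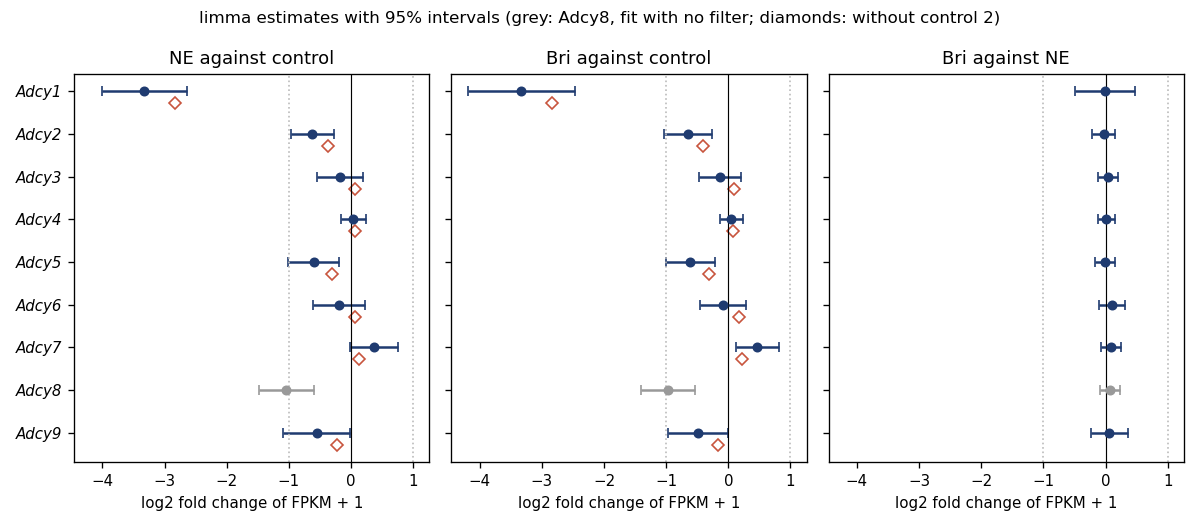
Log2 fold changes of FPKM + 1 (x axis) for the 9 members (y axis) in the 3 comparisons, with points for limma estimates, bars for 95% intervals and diamonds for the fit without control 2, in which Adcy8 was not fitted. The estimates for Adcy1 were -3.33 against control in both exposed groups, and every estimate of Bri against NE lay between -0.03 and 0.10.

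The comparison of Bri with NE asks whether brimonidine changed the cyclase transcripts of noise-exposed cochleae, and no member was called. Limma called 0 of 15707 genes lower and 0 higher here (0% in each direction), while 906 genes had an unadjusted p under 0.05, 519 of them higher in Bri. A voom fit of the recovered fragments, added after seeing the data, also called 0. On the log2 scale the fold change of Adcy1 was -0.0023 with a 95% interval of -0.48 to 0.48, the widest of the 9. Without Bri 5 it was -0.21. The highest estimates were 0.10 for Adcy6 (95% interval -0.11 to 0.32) and 0.10 for Adcy7 (95% interval -0.06 to 0.26), the latter above the NE mean in 6 of 7 Bri libraries. For Adcy2 to Adcy5, Adcy8 and Adcy9 the intervals together ran from -0.24 to 0.36. Limma adjusted p values lay between 0.898 and 1.00 over the 9 members, Adcy8 in the fit with no filter. A p that misses the threshold does not show that the groups are alike, and these intervals give the sizes that the libraries leave possible.

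FPKM is per length, so levels of different members can be compared as far as the lengths behind it hold. For Adcy4, Adcy5, Adcy6 and Adcy8 that length was solved from whole fragments, at 3500, 7007, 6017 and 5031 bases. Their annotated exon lengths were 4672, 7184, 6782 and 8152 bases. Values of Adcy2, Adcy3 and Adcy6 may also include antisense reads, as given above. In controls the order by mean was Adcy1, Adcy7, Adcy6, Adcy9, Adcy4, Adcy5, Adcy2, Adcy3 and Adcy8, and of these neighbours only Adcy6 and Adcy9 had ranges that did not overlap. In NE the order was Adcy7, Adcy6, Adcy4, Adcy9, Adcy3, Adcy5, Adcy2, Adcy1 and Adcy8. There Adcy7, Adcy6 and Adcy4 each stood clear of the next, and Adcy1 stood clear of Adcy8, while the neighbours from Adcy9 to Adcy1 overlapped. In Bri Adcy1 stood just above Adcy2 by mean but in 2 of 7 libraries, and without Bri 5 the order was that of NE. The first place of Adcy1 in controls rested on control 2, since over controls 1 and 3 the mean was 18.7 FPKM for Adcy7 and 17.8 FPKM for Adcy1. Without control 2, Adcy4 also stood above Adcy9 and Adcy2 above Adcy5.

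The FPKM of the 9 members summed to 60.8, 105 and 60.04 in controls 1, 2 and 3, to 32.5 to 47.0 in NE (median 46.5) and to 39.8 to 50.8 in Bri (median 48.6). Adcy1 made up 27.3%, 48.1% and 31.5% of the sum in the 3 controls, 2.32% to 5.59% in NE and 2.27% to 10.3% in Bri. Adcy7 made up 33.6%, 10.1% and 28.4% in the controls, 43.5% to 48.8% in NE and 40.4% to 51.2% in Bri. The calcium- and calmodulin-stimulated members together went from 41.4% ± 11.9 of the sum in control to 9.47% ± 1.25 in NE and 9.59% ± 2.97 in Bri (SD, n = 3, 7 and 7). The βγ-stimulated class went from 34.7% ± 13.7 to 61.0% ± 2.702 and 60.7% ± 3.43. The calcium-inhibited class went from 17.8% ± 0.835 to 23.3% ± 1.31 and 23.5% ± 1.33. In controls 1 and 3 alone, the first of these classes held 31.9% and 37.4% and the second 45.3% and 39.5%. Shares are not independent, since a lower Adcy1 raises the share of every other member.

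**Figure D3:**
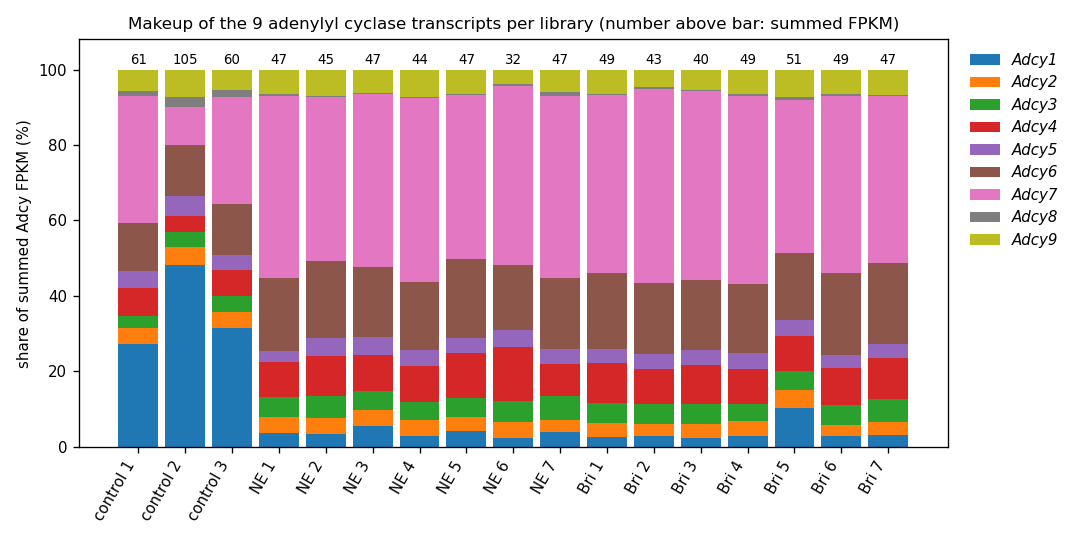
Bars give the percent of the summed FPKM of Adcy1 to Adcy9 (y axis) held by each gene in each of the 17 libraries (x axis), with the summed FPKM above each bar. Adcy1 held 27.3% or more of the sum in the 3 controls and 10.3% or less in the 14 exposed libraries, where Adcy7 held 40.4% or more.

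The genes most like each of the 8 members that passed the filter were taken by Pearson's r of log2(FPKM + 1) among 16415 genes, as a description. The libraries share their depth and tissue makeup, and over all 17 the step between control and exposed libraries carries much of r. For Adcy1 the 3 nearest genes were Unc80, a subunit of the sodium leak channel complex (r = 0.998), Cadm3, a synaptic adhesion molecule (r = 0.997), and Apba2, a neuronal adaptor protein (r = 0.997). Over the 14 exposed libraries alone they were Unc80 (r = 0.984), Pclo, which encodes the presynaptic scaffold piccolo (r = 0.982), and Srcin1 (r = 0.976). The choice over 17 libraries included the controls, so higher levels of those genes in controls follow from it. No control entered the choice over the 14 exposed libraries. The means of Unc80, Pclo and Srcin1 were also higher in control than in NE and Bri, which does not follow from that choice. For Unc80 they were 10.6 FPKM in control, 0.964 in NE and 0.983 in Bri. The reason for these higher levels was not tested.

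The other 7 members had other neighbours. For Adcy7 they were Plcb2, a phospholipase of blood cells (r = 0.978), Rbl1 (r = 0.976) and Wipf1 (r = 0.971) over 17 libraries, and Dock10 (r = 0.948), Cpeb4 (r = 0.945) and Vav3 (r = 0.945) over the 14 exposed. For Adcy4 they were the stromal matrix gene Lum (r = 0.820), Fgf7 (r = 0.775) and Thbs4 (r = 0.769), and for the exposed libraries Matn4 (r = 0.903), Lum (r = 0.850) and Postn (r = 0.843). For Adcy5 they were Map6, Klc1 and Apba1 (r = 0.979 to 0.982), which act on microtubules or at synapses, and in the exposed libraries Dnm3, Prune2 and Epb41l3 (r = 0.918 to 0.956). Adcy2 was nearest to Mamld1, Speg and Ppip5k1 over 17 libraries (r = 0.967 to 0.968), and in the exposed libraries to Mb, which encodes myoglobin (r = 0.893), Apobec2 (r = 0.872) and Ppip5k1 (r = 0.865). Adcy3 was nearest to Rbms2, Cobll1 and Pkd2 (r = 0.924 to 0.942) and in the exposed libraries to Myo5c (r = 0.905) and Polk (r = 0.901). Adcy6 was nearest to Hip1, Slc12a4 and Flt1 (r = 0.934 to 0.938) and then to Crebbp, Itgav and Raph1 (r = 0.950 to 0.965). Adcy9 was nearest to Rptor, Prrc2b and Pi4ka (r = 0.960 to 0.968) and then to Ptpra (r = 0.942) and Prrc2b (r = 0.932).

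Markers of cerebellar neurons moved with Adcy1 and, less closely, with Adcy8, Adcy2 and Adcy5. For the summed granule cell genes, Pearson's r over 17 libraries was 0.987, 0.938, 0.899 and 0.832 for these members in turn. For the other members it was -0.691 to 0.682. Over the 14 exposed libraries it was 0.847, 0.634, 0.649 and 0.267, and 0.0343 to 0.383 for the others. The summed FPKM of 8 genes of cerebellar granule cells was 185, 505 and 201 in controls 1, 2 and 3, 18.9 to 27.9 in NE (median 21.2) and 19.7 to 68.7 in Bri (median 22.5). The 3 controls stood in the same order in this sum as in Adcy1, and Bri 5 was the highest exposed library in both. All 8 of these genes were called lower in NE and in Bri than in control, but 4 of them, Gabra6, Neurod1, Cbln3 and Pax6, passed the filter only through the controls, where they are high, so the filter itself favoured a fall. Without control 2, 5 of 6 tested were called lower in NE and 6 of 7 in Bri. Gabra6, a GABA receptor subunit of granule cells, had a mean of 54.0 FPKM in control and 0.439 in NE, with 0 in NE 2 and NE 3. The 5 genes of Purkinje cells summed to 91.3, 241 and 87.5 FPKM in controls 1, 2 and 3, so controls 1 and 3 stood in the other order than in Adcy1, and to 5.53 to 10.9 in NE and 8.61 to 36.7 in Bri, the highest again Bri 5. All 5 were called lower in both, but 3 in NE and 2 in Bri passed the filter only through the controls, and without control 2 those called lower were 3 of 3 tested in NE and 5 of 5 in Bri. Of a list of central glia genes, which holds Gjb6 and Aqp4 that cochlear cells also express, 3 of 7 tested were called lower in NE and 4 of 7 in Bri, and 2 and 3 without control 2. The part of these cells in the levels of Adcy1, Adcy8, Adcy2 and Adcy5 was not tested.

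Markers of cochlear cell types were followed in the same way. Among genes of spiral ganglion neurons, 0 of 7 were called by limma in NE and 1 of 7 was lower in Bri, 0 in both without control 2, and their sums were 60.5 to 171 FPKM in control, 29.5 to 93.9 in NE and 35.9 to 59.6 in Bri. Of the genes of hair cells, of supporting cells and cochlear epithelium and of the stria vascularis, none of 4, 5 and 4 tested was called in NE. The hair cell genes summed to 13.5 to 30.5 FPKM in control, 13.3 to 17.7 in NE and 14.4 to 19.5 in Bri. Lists for Schwann cells, neutrophils, macrophages, B cells, erythroid cells, bone and endothelium had 0 genes called in any comparison. Of 5 skeletal muscle genes, 3 were called higher in NE and 0 in Bri against control, and without control 2 the counts were 5 and 3.

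The level of neutrophil genes is given beside Adcy7 and Adcy9. Their sum was highest in NE 6 (64544 FPKM), Bri 2 (57583 FPKM) and Bri 3 (50263 FPKM), and these 3 libraries had the lowest Adcy9 of all 17, at 1.23, 1.98 and 2.12 FPKM. Control 2, with the lowest sum, had the highest Adcy9 and the lowest Adcy7. NE 6, with the highest sum, had the next lowest Adcy7, so Adcy7 did not follow the neutrophil genes throughout. Over the 14 exposed libraries, Pearson's r with this sum was -0.948 for Adcy9, -0.833 for Adcy6 and -0.565 for Adcy7. For the other members it was -0.686 to -0.00459. Whether the share of these cells bears on the cyclases was not tested.

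**Figure D4:**
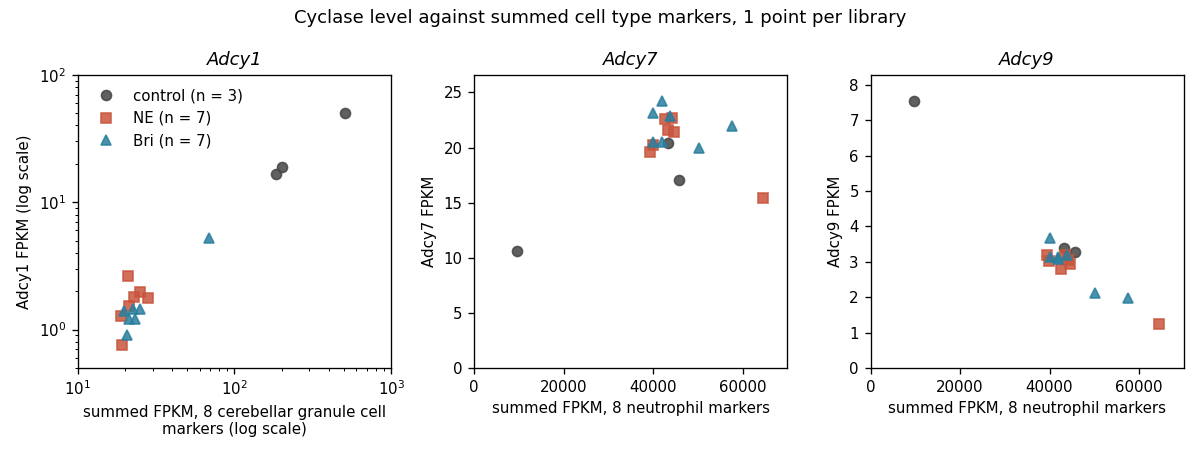
Each point is 1 library, with the FPKM of Adcy1, Adcy7 or Adcy9 on the y axis and the summed FPKM of 8 markers of cerebellar granule cells (left, both axes on a log scale) or of neutrophils (middle and right) on the x axis. Control 2 lies apart in all 3 panels, and Bri 5, at 68.7 and 5.24 FPKM, lies between the controls and the other exposed libraries on the left.

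The other genes of the pathway were followed through 11 lists with 59 genes, of which 44 passed the filter in NE with control. Of these, 11 (25.0%) were called lower and 0 higher, where 5.49% of all genes were called lower, and 18 were lower by adjusted p alone, where 12% of all genes were. Of the 11, Adcyap1r1 and Pde10a passed the filter only through the controls, where they are high. On the log2 scale the fold change was below 0 for 37 of 44 with a median of -0.27, where it was below 0 for 56.1% of all genes tested with a median of -0.04. Without control 2, 3 of 41 were called lower, where 2.2% of all genes were, Gnao1, Prkar1b and Adcyap1r1, and all 3 were among the 11. By adjusted p alone 9 of the 41 were lower, but the share over all genes was not computed for this setting, so the count has no background. The median was -0.11, where it was -0.01 over all genes tested. In Bri with control 10 of 45 were called lower, where 5.56% of all genes were, and without control 2 the same 3 genes, where 2.9% were. No pathway gene was called between Bri and NE. These shares are descriptions of lists chosen with results known. Markers of cerebellar neurons were also lower in NE and Bri than in control, as given above. Their part in the levels of the pathway genes was not tested.

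**Figure D5:**
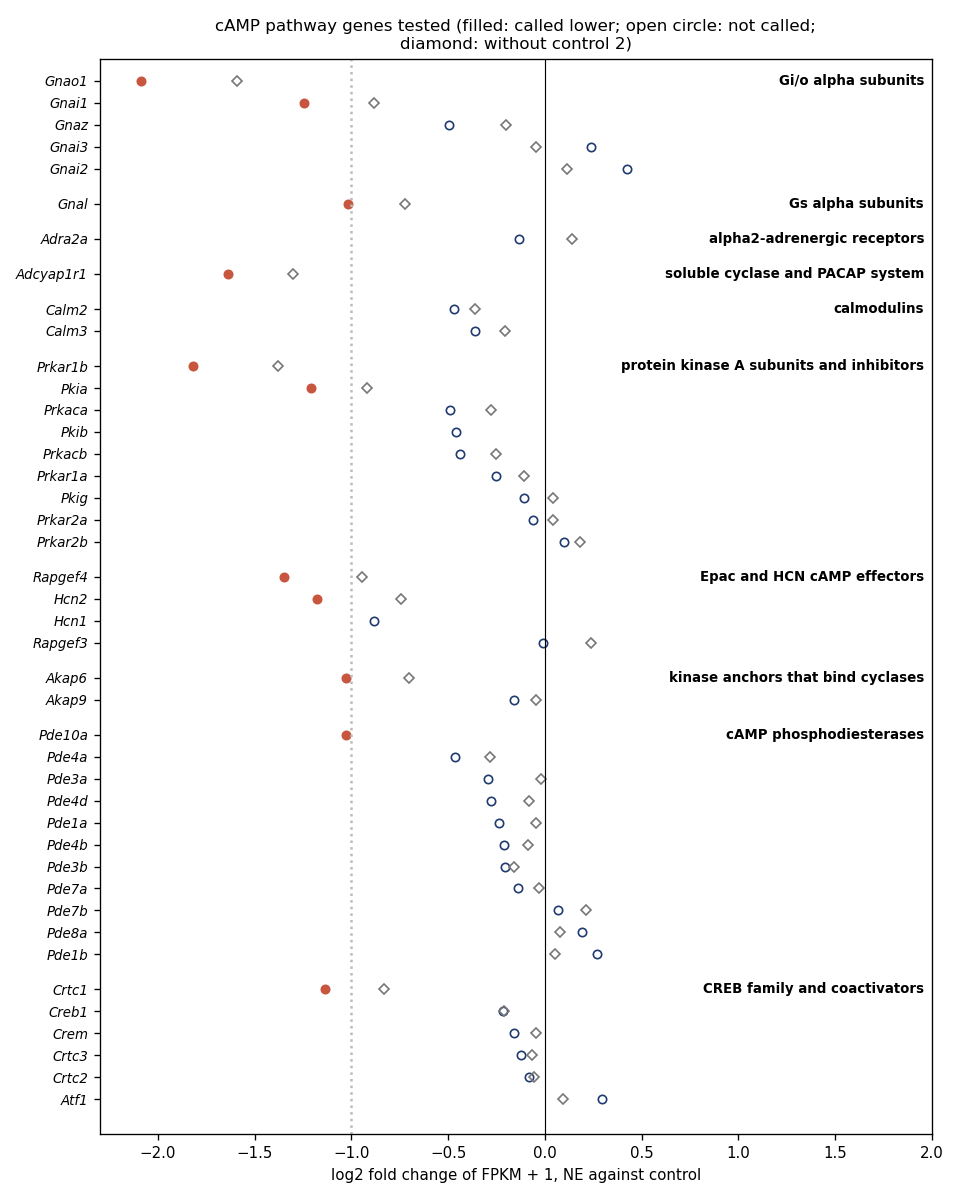
Log2 fold changes of FPKM + 1 in NE against control (x axis) for the pathway genes tested and reported here (y axis), grouped by list. Filled circles are the 11 genes called lower, open circles those not called, and diamonds the fit without control 2 where a gene was tested in it. Gnao1 lay lowest, at -2.09.

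Upstream of the cyclases, Adra2a was the only α2-adrenergic receptor gene that passed the filter, and it was not called. It had 3.19 ± 1.505 FPKM in control, 2.701 ± 0.580 in NE and 2.43 ± 0.372 in Bri (SD, n = 3, 7 and 7), with a log2 fold change in NE of -0.14 (limma adjusted p = 0.655) that turned to 0.14 without control 2. Adra2b and Adra2c did not pass the filter in any comparison, with NE means of 0.0385 and 0.679 FPKM.

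The Gi and Go α subunits, which carry the signal of the α2 receptor, gave 2 of 5 genes called lower. Gnao1, the abundant Go subunit of neurons, fell from 12.8 ± 9.03 FPKM in control to 1.90 ± 0.537 in NE (log2 fold change -2.09, limma adjusted p = 0.00104). Gnai1 fell from 17.4 ± 8.66 to 6.32 ± 0.698 FPKM (-1.24, limma adjusted p = 0.00272). Gnai2 and Gnai3, the widely expressed isoforms, had the highest levels, 203 ± 69.0 and 68.8 ± 21.2 FPKM in control, and log2 fold changes of 0.43 and 0.24 that did not pass, at 0.11 and -0.05 without control 2. Of the Gs family, Gnal fell from 5.56 ± 2.55 to 2.11 ± 0.442 FPKM (-1.02, limma adjusted p = 0.00658). Gnas was listed near 1 FPKM in all groups and did not pass the filter in NE with control, and 2457 of its 11186 exon bases are shared with genes on the opposite strand, so its value is uncertain.

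Among genes whose products act on or near the cyclases, the calmodulin gene Calm2 passed by adjusted p and not by fold, with a log2 fold change of -0.47, and Calm3 had -0.36 (limma adjusted p = 0.0729). Without control 2 Calm2 had -0.36 and an adjusted p of 0.0543. Adcyap1r1, the receptor of the peptide PACAP that activates cyclases, fell from 4.17 ± 2.25 to 0.588 ± 0.261 FPKM (-1.64, limma adjusted p = 0.000936), with 1 of 7 NE libraries at 1 FPKM or more. Akap6, an anchor that holds protein kinase A near cyclases, fell by 1.03 on the log2 scale (limma adjusted p = 0.0159), and Akap9 had -0.16.

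Downstream, Prkar1b, a regulatory subunit of protein kinase A found mainly in brain, fell from 20.3 ± 12.3 FPKM to 4.601 ± 1.64 (-1.82, limma adjusted p = 0.0027), and the kinase inhibitor Pkia from 15.0 ± 5.99 to 5.75 ± 1.43 (-1.21, limma adjusted p = 0.00583). In this list 5 of 9 genes were lower by adjusted p, among them the catalytic subunits Prkaca (-0.49, limma adjusted p = 0.038) and Prkacb (-0.44, limma adjusted p = 0.0356), whose adjusted p without control 2 was 0.104 and 0.0976. The regulatory subunit Prkar1a, at 106 ± 19.7 FPKM in control, had a log2 fold change of -0.25 (limma adjusted p = 0.127). Of the cAMP effectors, Rapgef4, which encodes the neuronal form of Epac, fell by 1.35 and the channel gene Hcn2 by 1.18 on the log2 scale, while Rapgef3, the other Epac gene, had -0.01, and 0.24 without control 2. Of 11 phosphodiesterases tested, which break down cAMP, Pde10a alone was called, falling from 2.68 ± 0.534 to 0.792 ± 0.0873 FPKM (-1.03, limma adjusted p = 0.000249), and in Bri its log2 fold change of -0.999 was just short of the fold minimum. No NE library reached 1 FPKM of Pde10a, so it was tested only because the controls are high. Among the genes of CREB and its coactivators, Crtc1 fell by 1.14 on the log2 scale (limma adjusted p = 0.00342), and Creb1, Atf1 and Crtc2 had -0.22, 0.29 and -0.08. Without control 2 the fall of Gnai1, Gnal, Pkia, Rapgef4, Hcn2, Akap6 and Crtc1 was short of the fold minimum, at log2 fold changes of -0.95 to -0.70, and Hcn2 (limma adjusted p = 0.124) and Akap6 (limma adjusted p = 0.0662) missed the p threshold too. Pde10a did not pass the filter there.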

How the data were processed

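Cochlear RNA of 17 mice was sequenced after TRIzol extraction and TruSeq Stranded mRNA library preparation. The authors deposited 1 table of FPKM values per gene. The submitters' processing notes name Trimmomatic, HISAT2, Cufflinks, HTSeq and mm10, and their settings are not given in the sources used here. Whole fragments were recovered from the steps between low FPKM values. Only genes reaching 1 FPKM in 3 or more libraries of a comparison were kept, log2(FPKM + 1) was fitted with limma 3.58.1 (R 4.3.3, empirical Bayes with trend, 1 model per pair of groups), and p-values were adjusted over all genes by Benjamini-Hochberg. A fold change on this scale understates the change of low genes. Single values were tested by exact two-sided permutation in scipy 1.17.1 (Python 3.11.15, numpy 2.4.6, pandas 2.3.3), and figures were drawn with matplotlib 3.10.9. The fits were tested on simulated data. The members, gene lists and tests were chosen with earlier results of these data known. Genes were named as members, as the 3 nearest genes of each member by correlation, or from the fixed lists. The alternatives were other filters, pseudocounts, scalings, weights, a replicate block and leaving out each library. A voom fit of the recovered fragments, and the marker counts and member orders without control 2 or Bri 5, were chosen after seeing the data. Promoter windows came from RefSeq (GRCm38.p6) and transcripts from GENCODE M21. Some genes of these lists and some nearest genes enter the counts and are not reported here by name.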

Additional observations from a re-analysis of the deposited data

Results flagged for a closer look

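Of 18 groups of 7 libraries tested, 6 held 1 library far from the others by Dixon's criterion, and chance marks about 1 in 20 groups. In Bri 5, Adcy1 was 5.24 FPKM and Adcy8 was 0.492 FPKM, both the highest of the 7 Bri libraries, and the summed granule cell markers were highest there too, at 68.7 FPKM. In NE 6, Adcy6 was 5.61 FPKM, Adcy7 was 15.4 FPKM and Adcy9 was 1.23 FPKM, each the lowest of the 7 NE libraries, and the summed neutrophil markers were highest there, at 64544 FPKM. In NE 7, Adcy8 was 0.485 FPKM, the highest of the NE libraries. Whether the marker levels bear on these values was not tested.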

How the results depend on the processing

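Of 536 alternative values for the members, 499 kept their direction and side of the threshold, 1 was weaker, 3 stronger and 33 reversed. In NE against control, 1 member was called lower, against 2 with no filter, 2 with no minimum fold and 0 with the replicate block. Over all genes, 875 of 15950 were called lower, and in these settings 897 of 33587, 1909 of 15950 and 0 of 15950. In Bri against control 1 member was called lower, and 3 with no minimum fold, where 886 and 1965 of 15947 genes were. Of the pathway genes, 11 were called lower in NE, 7 after quantile scaling, 3 with array weights and 18 with no minimum fold. The count was 0 with the block and 3 to 11 when 1 library was left out, the 3 without control 2. For Bri these were 10, 3 with array weights, 18 with no minimum fold, 0 with the block and 3 to 11. Over all 15950 genes in NE, 723 were called lower after quantile scaling, 673 with array weights and 340 of 15431 without control 2. Over all 15947 genes in Bri, 760 were called lower with array weights, 234 with the block and 450 of 15535 without control 2. Adcy1 under the block had a log2 fold change of -3.16 in NE (limma adjusted p = 0.205, range over alternatives 2.34e-07 to 0.205). Replicate numbers did not pair the libraries, since 0 pairs correlated over 0.1 and only 3 numbers are shared with control. Signs turned for members near 0. In NE against control, Adcy3 was 0.056 after quantile scaling and -0.36 to 0.057 leaving out 1 library, Adcy4 -0.0069 to 0.061, and Adcy6 0.079 with array weights and -0.34 to 0.062. In Bri against control, Adcy3 was 0.089 after quantile scaling and -0.32 to 0.095, Adcy4 -0.011 with the block, and Adcy6 0.16 with array weights and -0.24 to 0.17. In Bri against NE, Adcy1 was 0.0086 with equal FPKM totals and -0.21 to 0.076, Adcy5 0.0065 and -0.044 to 0.026, Adcy2 -0.088 to 7.7e-05, Adcy3 -0.0085 to 0.079, Adcy4 -0.013 to 0.056 and Adcy9 -0.061 to 0.12. Beyond these constructions the cause was not tested. Depth limits Adcy8, with 3 to 43 fragments in NE.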
